A study of Mus musculus with 30 samples.

Results

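CD4+ T cells from mice without a working Il4 gene (Il4KO) were compared with cells labelled TH2 in the 3' end sequencing (QuantSeq) libraries of the series. The comparison holds the 2 libraries titled Il4-/- and the 4 QuantSeq libraries titled TH2. These 6 libraries are part of 22 QuantSeq libraries and of 30 libraries in all. They were chosen by title, genotype and sort gate in their labels, with no use of measured values.

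All mice were C57BL/6, 8 weeks old, and carried OTII Tg, a T cell receptor transgene that recognises an ovalbumin peptide. Il4KO cells were Il4-/- x OTII Tg and were sorted from spleen as CD4+. Bcl6KO cells (n = 2), used as a second point of comparison, were Bcl6f/fCd4cre x OTII Tg and were sorted as CD4+hCD2+; in them Cre is driven by the Cd4 gene's control region, which acts in T cells. TH2 cells were OTII Tg IL-4BacTg x OTII Tg, as their labels spell it, and were sorted as CD4+hCD2+. The labels do not say what hCD2 marks. The Il4KO cells therefore differ from the TH2 cells in gate as well as in Il4 and in the IL-4BacTg transgene, and these cannot be told apart. Nor do the labels name an animal, a treatment or an immunisation, so each p-value reflects only how far libraries of a group lie apart, a spread that may be technical. That spread was estimated over all 22 QuantSeq libraries in 9 groups and shared between genes. It is therefore not the spread of the Il4KO and TH2 libraries alone.

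IL-4 is the founding cytokine of the type 2 response. It binds a receptor made of Il4ra and the common gamma chain Il2rg, which acts through the kinases Jak1 and Jak3 on the transcription factor Stat6. In CD4 T cells Stat6 raises Gata3, the master regulator of TH2 cells, which opens the cytokine locus of Il4, Il5 and Il13, so that IL-4 feeds back on the cells that make it. Stat6 also raises Il4ra itself, and Socs proteins damp the signal.

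The Il4KO libraries held 3483322 and 3062558 counts, and the TH2 libraries 2564536, 2964272, 3016527 and 1850033 counts. Levels are given as counts per 10 to the power of 6 counts of the library (CPM), so that 1 count is worth 0.287 to 0.541 CPM in these 6 libraries. Single libraries varied widely. The share of well counted genes more than 2-fold apart was 26.2% between both Il4KO libraries, 22.8 to 30.5% in the 6 pairs of TH2 libraries and 25.3 to 29.9% in the 8 pairs of an Il4KO with a TH2 library. The TH2 libraries fell into 2 pairs by sex-linked transcripts. Both Il4KO libraries carried the Y-linked helicase Ddx3y (76.9 and 68.6 CPM), as did TH2 replicates 3 and 4 (97.5 and 28.7 CPM). TH2 replicates 1 and 2 carried Xist, the RNA that silences an X chromosome in female cells, at 337 and 380 CPM, and so did the Bcl6KO libraries (217 and 228 CPM). The same split follows the sample numbers in the labels, 9 and 10 for TH2 replicates 1 and 2, against 25 and 28 for replicates 3 and 4 and 27 and 30 for the Il4KO libraries. The Bcl6KO libraries, which carry Xist, are numbered 26 and 29, so there the sex-linked transcripts and the sample numbers part. Each result below was therefore also computed against either pair of TH2 libraries.

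Il4 itself (chromosome 11, chr11:53602982-53618669, minus strand, GRCm38) gave little signal in any of these cells. Its counts were 0 and 3 in Il4KO, 0 and 0 in Bcl6KO, and 0, 0, 40 and 0 in TH2. The 40 counts of TH2 replicate 3 are 13.3 CPM, and the other TH2 libraries could not be told from the Il4KO libraries by this transcript. Over the pooled counts of each group the Il4KO to TH2 ratio was 0.119 (95% exact interval 0.0236 to 0.374, counting error only), and it rests on that single library. The log2 difference was -2.66 ± 2.41 (SE) with an adjusted p of 1 in edgeR's quasi-likelihood test, and it turned to 3.73 without TH2 replicate 3. Which part of Il4 was deleted and where the 3 counts lie are not given in the sources used here. In the 14 libraries of follicular helper cells (TFH and TFH2) Il4 had a median of 8.60 CPM and reached 106.8 CPM.

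The other type 2 cytokines were as sparse. Il5 was at 0 counts in all Il4KO, Bcl6KO and TH2 libraries. Il13 was at 0 in both Il4KO libraries, at 0 and 28.3 CPM in the Bcl6KO libraries, and at 2.34, 0, 0 and 3.24 CPM in the TH2 libraries. Il10, which restrains inflammation, was seen in TH2 replicate 2 alone of the 8 libraries, at 36.1 CPM. Il9, Il3, Csf2, Il6 and Il24 had no counts in the 8 libraries and were not tested, and Areg was tested with no counts in them. The cytokine transcripts that define the TH2 type were thus near or at 0 in most libraries labelled TH2, and the name TH2 is used here as the label gives it.

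Markers of CD4 T cells were present on both sides. Cd4 was at 347 and 469 CPM in the Il4KO libraries, against 537, 498, 525 and 360 CPM in the TH2 libraries. Trbc2, a constant segment of the T cell receptor, was the strongest at 4010 and 3045 CPM in Il4KO, against 3758, 3349, 3694 and 2825 CPM in TH2. Of the 26 genes of T cell receptor signalling, 13 lay above and 13 below 0, and the median log2 difference was 0.04. Several markers of other cells were low or absent. Cd8a, Foxp3 and the basophil protease gene Mcpt8 were at 0 in all 6 libraries. Cd8b1 had counts in some of them, at 18.95 and 0 CPM in Il4KO, against 26.9, 0, 1.66 and 0 CPM in TH2. The 15 regulatory T genes listed summed to 242 and 319 CPM in Il4KO, against 337 to 630 CPM in TH2. The summed level of the 8 basophil and mast cell genes was 0.574 and 7.84 CPM in Il4KO, against 0 to 15.5 CPM in TH2, and that of the 15 myeloid genes was 102 and 70.9 CPM, against 67.8 to 144 CPM. Most of the myeloid sum was Ctss, at 87.6 and 70.9 CPM in Il4KO, against 142, 66.8, 78.6 and 138 CPM in TH2. The 16 B cell genes summed to 201 and 197 CPM in Il4KO, against 60.5 to 168 CPM in TH2, nearly all of it Ighm, which had 182 and 182 CPM in Il4KO, against 146, 107, 121 and 60.5 CPM in TH2. Other B cell genes contributed the rest, and the part of these cells in the results was not tested.

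Over all 14383 genes tested, 10 passed an adjusted p of 0.05 (0.0695%), 1 higher (0.00695%) and 9 lower (0.0626%) in Il4KO cells. At an unadjusted p under 0.05 there were 768 genes (5.34%), 449 higher (3.12%) and 319 lower (2.22%). The 6 libraries separated without overlap at 1394 genes (9.69%), 810 higher (5.63%) and 584 lower (4.06%). Among the 3053 genes with a mean of at least 50 CPM over the 6 libraries the order turned, with 165 higher (5.4%) and 249 lower (8.16%). The median log2 difference of all genes was 0. In bulk samples fewer cells of a type and less RNA per cell cannot be told apart, and this holds for every difference that follows.

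**Figure D1:**
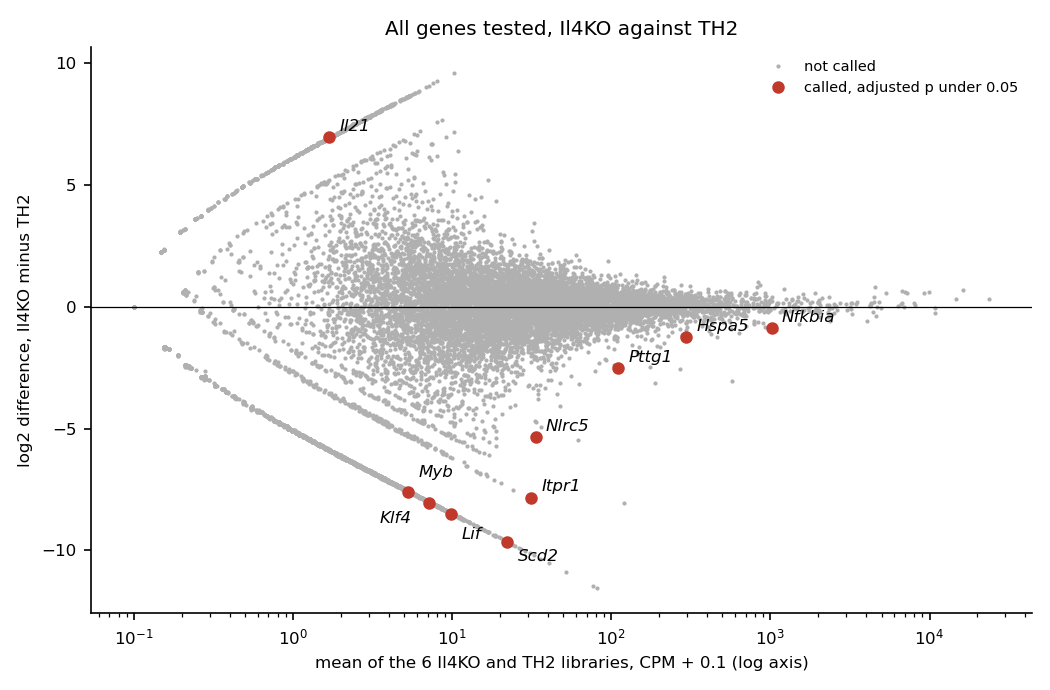
Log2 difference (Il4KO minus TH2, vertical axis) of each of the 14383 genes tested against its mean level over the 6 libraries (CPM + 0.1, log axis). Red points are the 10 called genes, of which Il21 lies above 0 and 9 lie below. Where 1 group has no count the fitted size depends on the prior count.

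Hspa5, Nfkbia and Pttg1 were the called genes with ample counts in both groups. Hspa5 (chr2:34771970-34777547, plus strand) encodes BiP, the main chaperone of the endoplasmic reticulum and a sensor of unfolded proteins. It stood at 132 and 162 CPM in Il4KO, against 443.7, 299, 355 and 368 CPM in TH2. The groups did not overlap, and each Il4KO library held less than the lowest TH2 library. The log2 difference was -1.24 ± 0.26 (SE, edgeR, adjusted p 0.00994), and it was -1.24 against the TH2 pair with Y-linked transcripts and -1.26 against the pair with Xist.

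Nfkbia (chr12:55489410-55492647, minus strand) encodes IkB alpha, the inhibitor that holds NF-kB in the cytoplasm and is itself induced by NF-kB. It stood at 522 and 743 CPM in Il4KO, against 1315, 1125, 1247 and 1146 CPM in TH2. The 4 TH2 libraries lay close together and above both Il4KO libraries. The log2 difference was -0.86 ± 0.20 (edgeR, adjusted p 0.0372), with -0.86 and -0.87 against either TH2 pair. Pttg1 (chr11:43420250-43426251, minus strand) encodes securin, which holds back the separation of sister chromatids until anaphase. It stood at 30.4 and 20.2 CPM in Il4KO, against 100, 69.2, 190 and 256 CPM in TH2. Its log2 difference was -2.52 ± 0.54 (edgeR, adjusted p 0.0174), larger against the TH2 pair with Y-linked transcripts (-3.08) than against the pair with Xist (-1.65), where it was not called.

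The 250 bases before the RefSeq start (GRCm38.p6) are shown for Hspa5 and Nfkbia, the 2 called genes of highest level. Capitals mark the match to a motif searched on both strands: the endoplasmic reticulum stress element (CCAAT and CCACG 9 bases apart) in Hspa5, and an NF-kB type site (GGG and TTTCC 2 bases apart) in Nfkbia, where the match reads on the other strand. The Hspa5 window is chr2:34771840-34772089, plus strand, and the GENCODE start of the gene falls inside it. The Nfkbia window is chr12:55492648-55492897, minus strand.
Hspa5: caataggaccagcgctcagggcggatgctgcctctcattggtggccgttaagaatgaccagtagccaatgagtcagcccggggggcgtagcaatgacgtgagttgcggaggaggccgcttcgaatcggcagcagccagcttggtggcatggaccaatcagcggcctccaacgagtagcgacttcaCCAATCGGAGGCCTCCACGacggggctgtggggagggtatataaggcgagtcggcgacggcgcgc
Nfkbia: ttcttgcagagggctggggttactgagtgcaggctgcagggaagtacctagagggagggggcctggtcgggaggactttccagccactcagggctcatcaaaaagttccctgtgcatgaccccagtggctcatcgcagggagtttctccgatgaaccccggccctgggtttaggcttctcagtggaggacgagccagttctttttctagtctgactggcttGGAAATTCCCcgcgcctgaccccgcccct
Windows of that length held the first motif in 0.113% and the second in 1.41% of 32851 promoters. Of the 10 called genes 7 had a promoter in the table. Each motif was found in 1 of the 7, and the spacing that Stat6 binds (TTC and GAA 4 bases apart), present in 5.85% of all promoters, was found in 0 of them. These are matches of letters and not evidence of binding. The search was not planned, and the first and second motif go with the roles given above for Hspa5 and Nfkbia. Their shares are therefore not read as enrichment.

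Itpr1, Nlrc5 and Klf4 were near or at 0 in Il4KO cells and present in every TH2 library. Itpr1 (chr6:108213096-108551109, plus strand) encodes an inositol trisphosphate receptor, the channel that releases calcium from the endoplasmic reticulum after T cell receptor signalling. It had 0 and 1 count in Il4KO (0 and 0.327 CPM), against 63.6, 46.2, 47.1 and 29.2 CPM in TH2. The pooled TH2 level was 312 times the Il4KO level (95% exact interval 55.8 to 12360, counting error only), with an adjusted p of 8.55e-06 in edgeR. Its paralogs did not pass the test. Itpr2 stood at 198 and 214 CPM in Il4KO, against 142, 201, 190 and 268 CPM in TH2, and Itpr3 at 31.6 and 46.0 CPM in Il4KO, against 51.9, 53.0, 66.3 and 131 CPM in TH2.

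Nlrc5 (chr8:94434356-94527272, plus strand) encodes the transactivator of MHC class I genes. It had 0 and 7 counts in Il4KO (0 and 2.29 CPM), against 48.0, 94.8, 29.2 and 26.0 CPM in TH2. The pooled TH2 level was 48.6 times that of Il4KO (interval 23.4 to 121), with an adjusted p of 0.00141 in edgeR. Its Bcl6KO level was higher still, at 143 and 74.8 CPM. Klf4 (chr4:55527143-55532466, minus strand) encodes a zinc finger factor that restrains proliferation in T cells. It had no count in either Il4KO library and 5.07, 14.5, 19.6 and 3.24 CPM in TH2. With 3 counts put in each empty library, Klf4 was at least 11.5-fold lower in Il4KO than in TH2 (edgeR, adjusted p 4.79e-06).

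Myb, Lif and Scd2 were also without a count in Il4KO cells, but at lower or less even TH2 levels. Myb, a transcription factor of progenitor and long-lived T cells, stood at 1.17, 13.8, 12.9 and 3.24 CPM in TH2 and was at least 8.47-fold lower in Il4KO (adjusted p 0.0176). Lif, a cytokine of the IL-6 family, stood at 7.80, 29.0, 21.5 and 0 CPM in TH2 (at least 15.9-fold lower, adjusted p 0.0326). Scd2, a fatty acid desaturase, stood at 55.4, 48.2, 29.2 and 0 CPM in TH2 (at least 36.1-fold lower, adjusted p 0.0326). For Lif and Scd2 the groups overlapped, since TH2 replicate 4, the shallowest of the 6 libraries, also held none. Myb had no count in the Bcl6KO libraries either, where Lif stood at 10.2 and 0.977 CPM and Scd2 at 25.6 and 0 CPM.

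Il21, the cytokine through which follicular helper cells drive B cells, was the gene that rose. It had 33 counts in Il4KO replicate 1 (9.47 CPM) and none in Il4KO replicate 2, in the Bcl6KO or in the TH2 libraries. The mean of Il4KO was at least 3.95-fold higher than that of TH2 (edgeR, adjusted p 0.00738). The value is that of 1 library, and without Il4KO replicate 1 no count was left in either group.

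**Figure D2:**
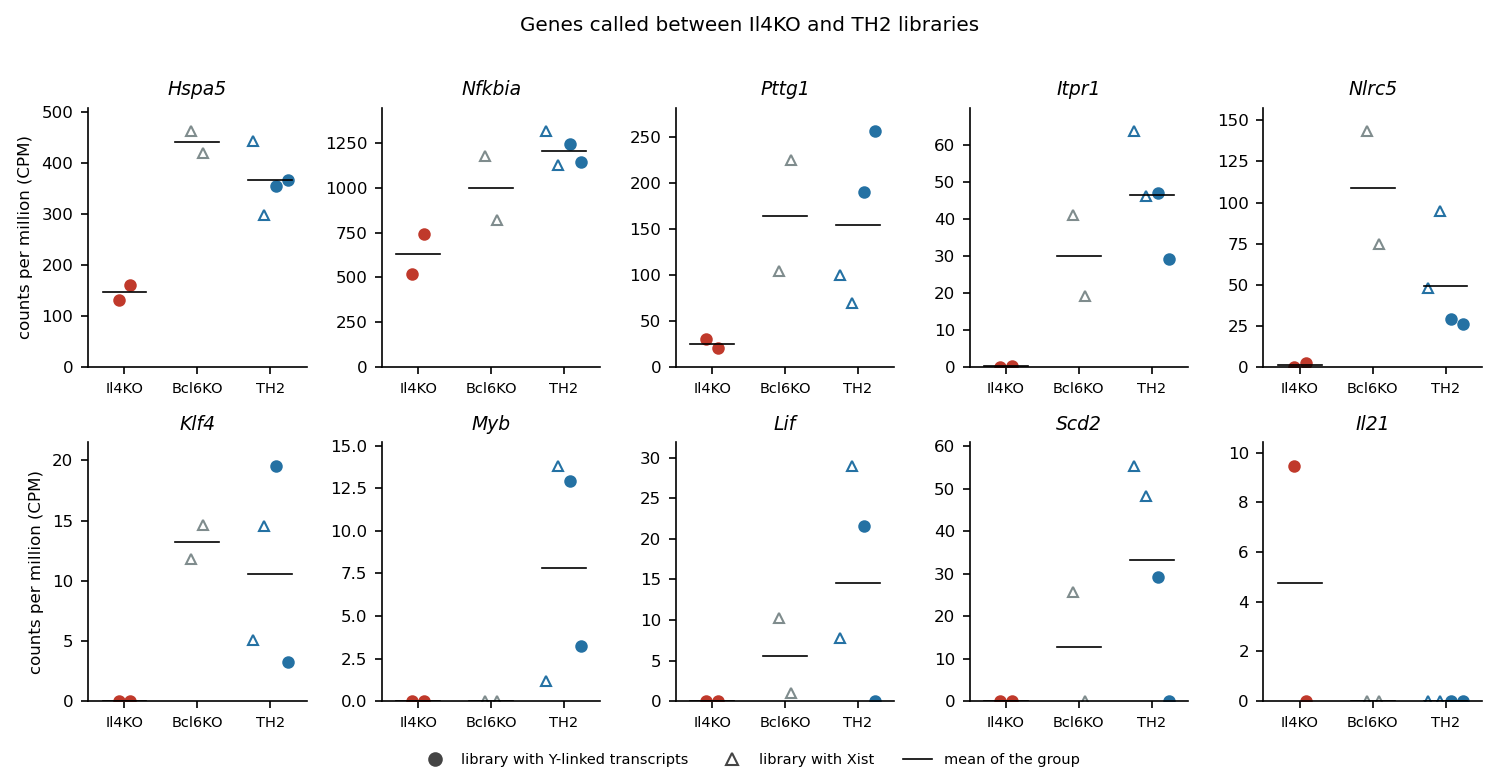
Level of the 10 called genes in each Il4KO, Bcl6KO and TH2 library (vertical axes, CPM from 0). Filled circles are libraries with Y-linked transcripts, open triangles libraries with Xist, and the line is the mean of the group; in 7 panels every Il4KO library lies below every TH2 library.

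How many of these calls hold depends on the libraries. Without Il4KO replicate 1 there were 15 calls, of which 2 were among the 10, and without Il4KO replicate 2 there were 17, of which 6 were. Leaving out a TH2 library gave 33 to 50 calls, and all 10 were among them each time. Itpr1 and Klf4 were called with any library left out. Nlrc5, Hspa5, Nfkbia and Il21 were not called without Il4KO replicate 1, and Pttg1, Myb, Lif and Scd2 were not called when either of the Il4KO libraries was left out. Against the TH2 pair with Y-linked transcripts there were 32 calls, 9 of them among the 10, the exception being Il21, and against the pair with Xist 90, 9 of them among the 10, the exception being Pttg1. DESeq2 made 86 calls, among them all 10, and voom 104 (72 higher and 32 lower), among them 4 of the 10. A stricter filter kept the 3048 genes with a mean of at least 50 CPM over the Il4KO, Bcl6KO and TH2 libraries. These hold 4 of the 10, and edgeR called none, with 169 at an unadjusted p under 0.05. A fit of the Il4KO and TH2 libraries alone made 11 calls, of which Itpr1 and Pttg1 were among the 10, and a fit of the Il4KO, Bcl6KO and TH2 libraries made 11, of which Nlrc5 and Pttg1 were. Klf4 was called in neither (adjusted p 0.895 and 0.960 in edgeR).

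Among genes that work beside the called ones, no other passed the test. Of 19 genes of endoplasmic reticulum chaperones and the unfolded protein response, 1 was called (Hspa5), 11 lay above 0 and 8 below, and the median log2 difference was 0.14. Calr, a calcium-binding chaperone, stood at 168 and 132 CPM in Il4KO, against 264, 178, 183 and 280 CPM in TH2, without passing the test. Hsp90b1, another chaperone of the endoplasmic reticulum, stood at 160 and 61.4 CPM in Il4KO, against 55.4, 88.7, 82.6 and 132 CPM in TH2. Of 18 genes of the NF-kB pathway, 1 was called (Nfkbia), and the median was 0.23. Nfkb1, the p50 subunit, lay the other way from its inhibitor, with 128 and 79.3 CPM in Il4KO, against 20.3, 27.7, 23.9 and 68.1 CPM in TH2, and did not pass either (adjusted p 0.788). Of 11 KLF genes, 1 was called (Klf4). These sets were chosen after the calls were seen.

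No gene of the IL-4 receptor and signalling list passed the test, of 16 tested. Of these, 6 lay above 0 and 10 below, and the median log2 difference was -0.54, against 0 over all genes. The list's median was also low for Bcl6KO minus TH2, at -0.56, against -0.04 over all genes, and it was 0.00 for Il4KO minus Bcl6KO. These comparisons share libraries. The summed level of the list did not follow its median in Bcl6KO. The sum came to 3291 and 3082 CPM in Il4KO, 4725 and 4104 CPM in Bcl6KO, and 4542, 3925, 3615 and 3470 CPM in TH2. Il4ra, the receptor chain specific to IL-4 and IL-13, was the strongest. It stood at 977 and 1091 CPM in Il4KO, against 2259, 1733, 1443 and 1629 CPM in TH2. The groups did not overlap, but the log2 difference of -0.70 ± 0.49 had an adjusted p of 0.924 in edgeR. In the Bcl6KO libraries Il4ra stood at 2351 and 2004 CPM, and in the 14 TFH and TFH2 libraries at 44.3 to 280 CPM.

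The 2 other members with separate groups were inhibitors of the signal. Socs3, a suppressor of cytokine signalling, stood at 70.3 and 71.5 CPM in Il4KO, 52.5 and 56.7 CPM in Bcl6KO, and 180, 119, 102 and 118 CPM in TH2 (adjusted p 0.921 for Il4KO against TH2). Its Bcl6KO libraries also lay below every TH2 library. Ptpn6, a phosphatase, stood at 19.5 and 19.6 CPM in Il4KO, 47.1 and 15.6 CPM in Bcl6KO, and 47.2, 64.4, 35.5 and 67.0 CPM in TH2 (adjusted p 0.921 for Il4KO against TH2). A count of 3 of 16 lower without overlap stands beside 4.06% over all genes and 8.16% over those of at least 50 CPM.

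The core of the pathway overlapped between the groups. Il2rg, the common gamma chain, stood at 1247 and 955 CPM in Il4KO, against 962, 1006, 895 and 918 CPM in TH2. Jak1 stood at 637 and 469 CPM in Il4KO, against 480, 476, 515 and 308 CPM in TH2, and Jak3 at 68.9 and 30.4 CPM in Il4KO, against 53.8, 54.3, 48.1 and 21.1 CPM in TH2. The transcript of Stat6, the factor that carries the IL-4 signal, stood at 34.2 and 50.3 CPM in Il4KO, against 42.5, 27.0, 46.1 and 0 CPM in TH2. Il13ra1, the partner chain of the second IL-4 receptor, was at 0 in all 6 libraries and was not tested. The rest of the list was uneven within groups: Stat5a stood at 3.44 and 65.6 CPM in Il4KO, against 21.8, 109, 110 and 44.9 CPM in TH2, Cish at 31.9 and 9.80 CPM in Il4KO, against 120, 66.1, 90.5 and 5.95 CPM in TH2, and Irs2 at 0 and 13.1 CPM in Il4KO, against 42.9, 29.4, 0 and 41.6 CPM in TH2. Socs2 stood at 2.58 and 3.27 CPM in Il4KO, against 53.0, 40.8, 11.6 and 0 CPM in TH2. Tyk2, Socs1, Socs5, Ptpn11 and Stat5b also overlapped.

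**Figure D3:**
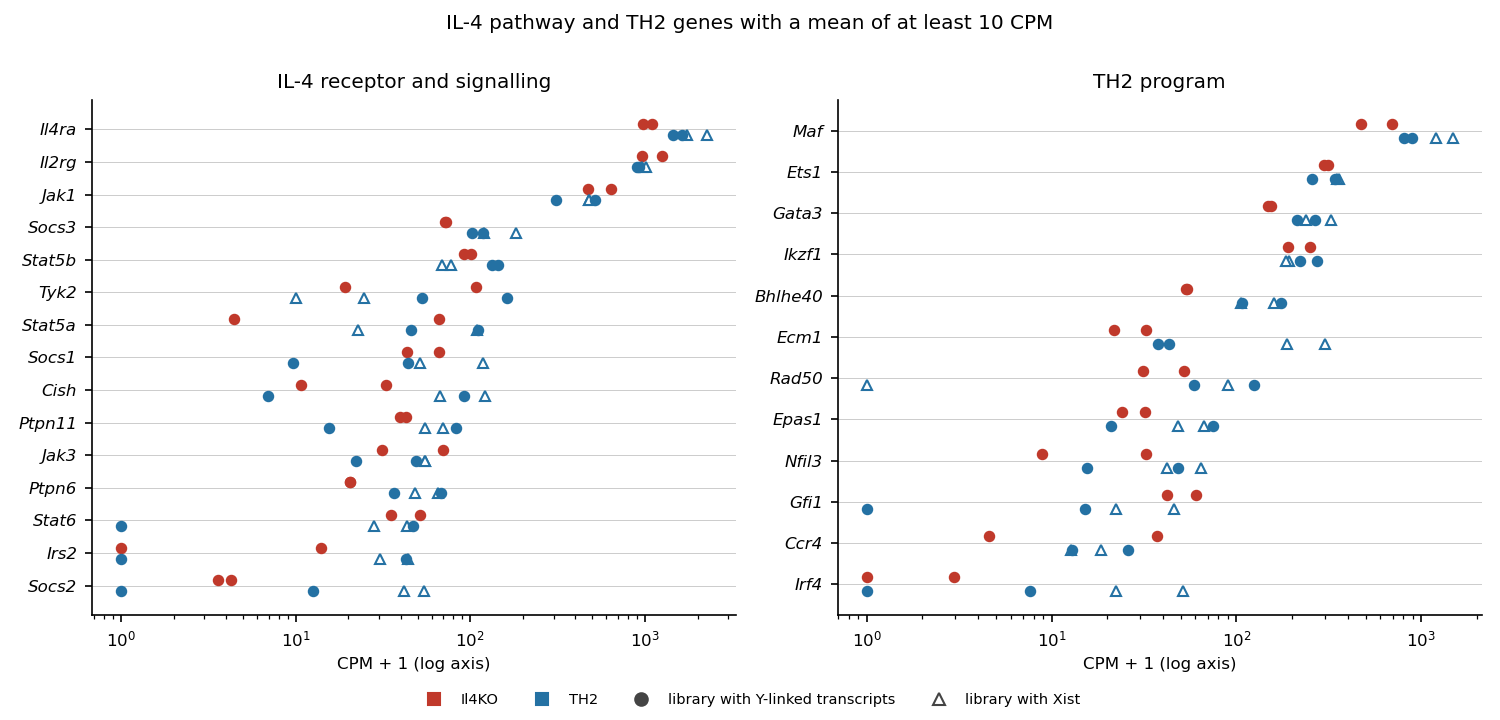
Level of the IL-4 receptor and signalling genes (left) and TH2 program genes (right) with a mean of at least 10 CPM in each Il4KO (red, upper line of each row) and TH2 library (blue, lower line), as CPM + 1 on a log axis; filled circles are libraries with Y-linked transcripts and open triangles libraries with Xist. Il4ra, Socs3 and Ptpn6 on the left and Maf, Gata3, Bhlhe40 and Ecm1 on the right have both Il4KO libraries below all TH2 libraries; none of these passed the test.

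The TH2 program list held no call either. Of 19 genes tested, none was called, 5 lay above 0 and 12 below, the median log2 difference was -0.41, and 4 were lower and 1 higher without overlap, beside 4.06% lower and 5.63% higher over all genes. Against the TH2 pair with Y-linked transcripts the median was -0.48, and against the pair with Xist it was -0.05. For Bcl6KO minus TH2 the median was 0.12. Gata3, the master regulator of TH2 cells, stood at 148 and 153 CPM in Il4KO, against 238, 325, 211 and 266 CPM in TH2 (log2 difference -0.71 ± 0.41, adjusted p 0.924). Maf, which activates the Il4 promoter, stood at 474 and 698 CPM in Il4KO, against 1202, 1481, 892 and 809 CPM in TH2 (-0.83 ± 0.28, adjusted p 0.788). Bhlhe40, a repressor of Il10 in helper cells, stood at 52.5 and 53.2 CPM in Il4KO, against 158, 106, 106 and 174 CPM in TH2 (-1.28 ± 0.45, adjusted p 0.788). Both Il4KO libraries lay below all TH2 libraries at each of the 3, and no difference was past the threshold.

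Ecm1, a matrix protein needed for TH2 cells to leave lymphoid tissue, showed the split within TH2 most clearly. It stood at 20.7 and 31.4 CPM in Il4KO, against 188 and 302 CPM in the TH2 pair with Xist and 36.8 and 42.2 CPM in the pair with Y-linked transcripts. Il1rl1, the IL-33 receptor of TH2 and regulatory cells, was the member that lay higher without overlap, at 25.6 and 7.51 CPM in Il4KO, 42.9 and 0 CPM in Bcl6KO, and 0.390, 0.337, 0 and 0 CPM in TH2 (adjusted p 0.921 for Il4KO against TH2). Ets1, with 299 and 312 CPM in Il4KO, against 360, 351, 340 and 256 CPM in TH2, and Ikzf1, with 250 and 189 CPM in Il4KO, against 193, 184, 221 and 271 CPM in TH2, overlapped. The chemokine and prostaglandin receptor genes Ccr8 and Ptgdr2, markers of TH2 effector cells, were at 0 in all 6 libraries. Summed over the 23 listed genes the program came to 1479 and 1587 CPM in Il4KO, 2392 and 2645 CPM in Bcl6KO, and 2542, 3041, 2127 and 1935 CPM in TH2.

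Around Il4, genes within 1 Mb on either side were examined, an addition made after the data were seen. Of 20 genes tested in the window, none was called and 3 were lower and none higher without overlap, beside 4.06% and 5.63% over all genes, with a median log2 difference of -0.56. Kif3a, a kinesin gene beside Il4, was the gene with an unadjusted p under 0.05, at 0 and 0 CPM in Il4KO, 7.05 and 31.3 CPM in Bcl6KO, and 49.1, 12.8, 5.97 and 3.78 CPM in TH2. Irf1 and Gm12216 were the other 2. Irf1, an interferon response factor, stood at 458 and 386 CPM in Il4KO, against 582, 584, 518 and 578 CPM in TH2. Rad50, whose gene holds the control region of the TH2 cytokine locus, stood at 50.8 and 30.4 CPM in Il4KO, against 0, 89.1, 123 and 57.8 CPM in TH2.

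Of the 12 genes of MHC class I presentation, 1 was called (Nlrc5, lower), 4 lay above 0 and 8 below. The immunoproteasome subunits Psmb8 and Psmb9 were lower without overlap but did not pass. Psmb8 stood at 153 and 174 CPM in Il4KO, 464 and 531 CPM in Bcl6KO, and 282, 370, 332 and 318 CPM in TH2 (adjusted p 0.830). Psmb9 stood at 86.4 and 116 CPM in Il4KO, 134 and 207 CPM in Bcl6KO, and 200, 140, 205 and 155 CPM in TH2 (adjusted p 0.924). The class I heavy chains and light chain, for which Nlrc5 is the transactivator, overlapped. H2-K1 stood at 2975 and 2086 CPM in Il4KO, against 2707, 2257, 2436 and 2496 CPM in TH2, and B2m at 2642 and 1904 CPM in Il4KO, against 2429, 2502, 2226 and 1892 CPM in TH2. An Nlrc5 level at or near 0 thus stood beside H2-K1 and B2m levels that overlapped and Psmb8 and Psmb9 levels that were lower. A link between Nlrc5 and these levels was not tested.

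Among genes of activation and survival, Nfkbia was the 1 called. Of 22 activation and immediate early genes, 8 lay above 0 and 13 below, with a median of -0.57, or -0.14 with the 3-count bound used for genes absent from 1 group. Junb stood at 1982 and 1428 CPM in Il4KO, against 1619, 1513, 1780 and 2332 CPM in TH2. Dusp2, a phosphatase induced by activation, stood at 133 and 102 CPM in Il4KO, against 408, 242, 336 and 138 CPM in TH2 (adjusted p 0.697). Cd69, an early activation marker that holds cells in tissue, stood at 0.287 and 13.4 CPM in Il4KO, against 40.5, 21.6, 100.4 and 62.7 CPM in TH2 (adjusted p 0.605).

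The survival list, 15 genes tested, had 3 above and 12 below 0 and a median of -0.40, against -0.53 with the TH2 pair with Y-linked transcripts and 0.02 with the pair with Xist, the 3-count bound included. Bcl2, the survival factor that common gamma chain cytokines sustain, stood at 106 and 201 CPM in Il4KO, 366 and 414 CPM in Bcl6KO, and 432, 361, 288 and 340 CPM in TH2 (log2 difference -1.14 ± 0.47, adjusted p 0.921). Its relative Bcl2l1 stood at 0 and 0.980 CPM in Il4KO, against 26.9, 28.7, 23.5 and 21.6 CPM in TH2 (adjusted p 0.921), an even TH2 level beside almost none. Il2rb, the receptor chain shared by IL-2 and IL-15, stood at 98.8 and 72.2 CPM in Il4KO, against 265, 350, 138 and 156 CPM in TH2 (-1.33 ± 0.36, adjusted p 0.184). These genes were singled out after their values were seen, because their groups did not overlap. In all, 199 list genes had a mean of at least 50 CPM, and 12 of them (6.03%) lay higher and 30 (15.1%) lower without overlap, against 5.4% and 8.16% of all genes at that level. The lists were chosen with earlier results of these data known, so nothing is read from that difference.

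Genes of naive and recirculating cells lay on both sides, 11 above and 9 below 0, none called. Klf2, the factor that keeps T cells in circulation, stood at 314 and 321 CPM in Il4KO, against 181, 128, 165 and 172 CPM in TH2 (log2 difference 1.05 ± 0.37, adjusted p 0.799). S1pr1, the exit receptor that Klf2 controls, stood at 326 and 321 CPM in Il4KO, against 227, 280, 178 and 262 CPM in TH2 (0.53 ± 0.43, adjusted p 0.9504). Both lay above all TH2 libraries. Il7r, the receptor of IL-7, overlapped between the groups, at 717 and 601 CPM in Il4KO, against 370, 298, 734 and 508 CPM in TH2.

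Several lists turned on which TH2 libraries were used, the cell cycle among them. Of 20 cell cycle genes none was called, 4 lay above 0 and 16 below, and the median log2 difference was -1.26. Against the TH2 pair with Xist the median was -2.05, and against the pair with Y-linked transcripts it was 0.06. Top2a, the topoisomerase of dividing cells, stood at 36.2 and 20.6 CPM in Il4KO, against 478 and 538 CPM in the pair with Xist and 36.1 and 15.7 CPM in the pair with Y-linked transcripts. The 20 genes summed to 1145 and 761 CPM in Il4KO, 1045 and 961 CPM in Bcl6KO, and 3656, 3745, 902 and 684 CPM in TH2. Of these 8 libraries, TH2 replicates 1 and 2 held the high sums. The cause of the split within TH2 was not tested.

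The same 2 TH2 libraries stood apart in memory and effector genes. S100a6, a calcium-binding protein of effector cells, stood at 336 and 356 CPM in Il4KO, against 1114, 1394, 322 and 268 CPM in TH2. Crip1 stood at 291 and 396 CPM in Il4KO, against 946, 998, 308 and 461 CPM in TH2, and Lgals1 at 168 and 289 CPM in Il4KO, against 873, 781, 244 and 174 CPM in TH2. The list's median was -0.01 against all TH2 libraries, -0.23 against the pair with Xist and 0.37 against the other. Gzma, a granule protease, stood at 184 and 293 CPM in Il4KO, against 885, 672, 79.2 and 108 CPM in TH2. The cholesterol synthesis list had a median of -0.57 against all TH2 libraries, -1.39 against the pair with Xist and 0.24 against the other, with the 3-count bound for genes absent from 1 group. For these lists no direction is given, since it turned with the TH2 libraries used.

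**Figure D4:**
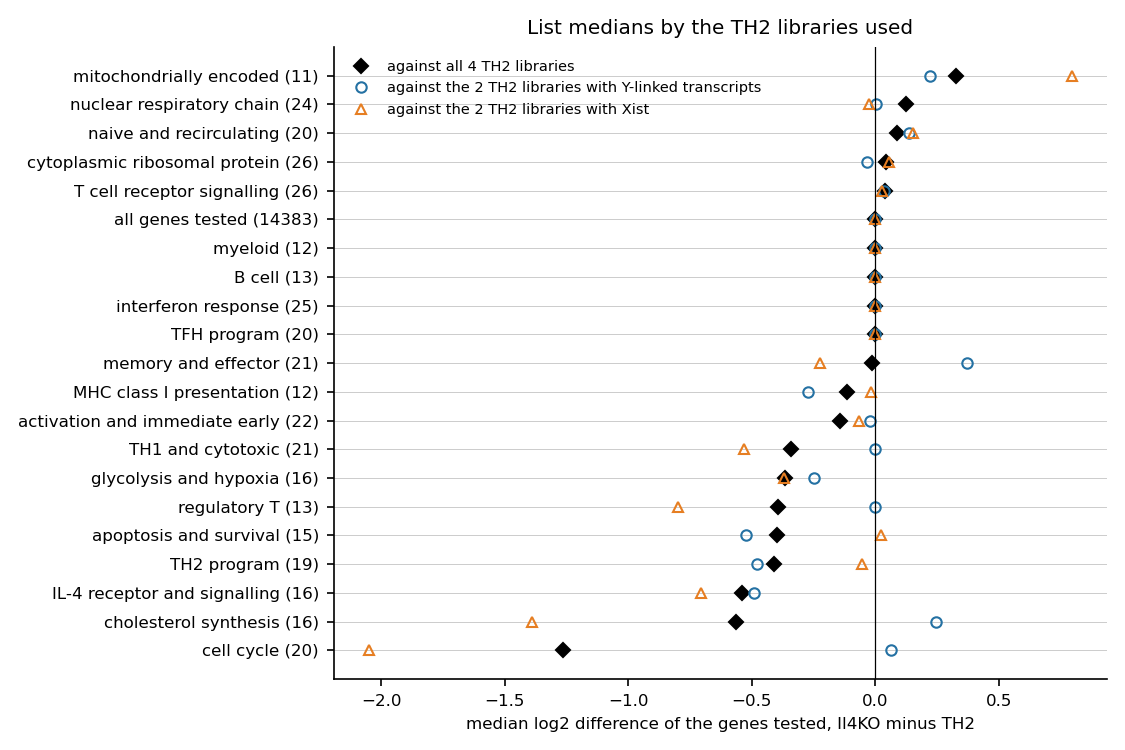
Median log2 difference (Il4KO minus TH2, horizontal axis) of the genes tested in each list, with the 3-count bound for genes absent from 1 group, against all 4 TH2 libraries (black), the pair with Y-linked transcripts (blue circles) and the pair with Xist (orange triangles); the number tested is in brackets and lists of under 10 genes are left out. The IL-4 receptor and signalling list lies between -0.71 and -0.49 in all 3, while the cell cycle list runs between -2.05 and 0.06.

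Mitochondrially encoded transcripts lay higher in Il4KO cells, without calls. Genes named as mitochondrial made up 8.53 and 9.02% of counts in Il4KO, against 5.86, 6.26, 8.13 and 7.92% in TH2 (exact permutation test, 2-sided p 0.133, where the smallest possible is 0.0667). Both Il4KO libraries lay above all TH2 libraries. Of 15 genes listed, 4 had no count in the 6 libraries and were not tested. Of 11 genes tested, 9 lay above 0 and 2 below, the median log2 difference was 0.33, and it was 0.22 against the TH2 pair with Y-linked transcripts and 0.80 against the pair with Xist. Of the 9 genes next in order of p on the higher side with a mean of at least 50 CPM, 2 were mitochondrial (mt-Cytb and mt-Nd1). Another 6 (Gm28437, Gm13340, Gm28661, Gm10925, Gm29216 and Gm13341) are annotated as unprocessed pseudogenes, and counts of such copies are uncertain where they share reads with mitochondrial genes. These 6 are not in the share above, and the share with them was not computed. The largest, Gm29216, stood at 25560 and 16820 CPM in Il4KO, against 12240, 11520, 14760 and 16910 CPM in TH2. The last of the 9 genes was Samhd1, an enzyme that breaks down deoxynucleotides and limits viral replication. It stood at 1294 and 1144 CPM in Il4KO, 1004 and 904 CPM in Bcl6KO, and 576, 467, 819 and 689 CPM in TH2 (log2 difference 1.01 ± 0.27, adjusted p 0.174). On the lower side the next gene was Pim3, a survival kinase, at 63.4 and 53.5 CPM in Il4KO, against 350, 240, 75.6 and 117 CPM in TH2 (-1.66 ± 0.42, adjusted p 0.104).

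The remaining lists held no call in either direction, apart from Il21 in the TFH list. Ribosomal protein transcripts made up 17.5 and 18.9% of counts in Il4KO, against 18.2 to 19.1% in TH2 (exact permutation test, 2-sided p 0.4), and the 26 genes of that list had a median of 0.04. The interferon response list had a median of 0. The TFH list had a median of 0 and Cxcr5, the receptor that places cells in B cell follicles, was at 0 in all 6 libraries. Batf, a factor of helper cell differentiation, stood at 6.03 and 15.4 CPM in Il4KO, 88.1 and 89.9 CPM in Bcl6KO, and 18.3, 87.0, 64.3 and 24.9 CPM in TH2 (adjusted p 0.921). The glycolysis and hypoxia list had a median of -0.36, the TH1 and cytotoxic list -0.34 and the regulatory T list -0.40 with the 3-count bound for genes absent from 1 group, and the last 2 came to 0 against the TH2 pair with Y-linked transcripts.

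**Figure D5:**
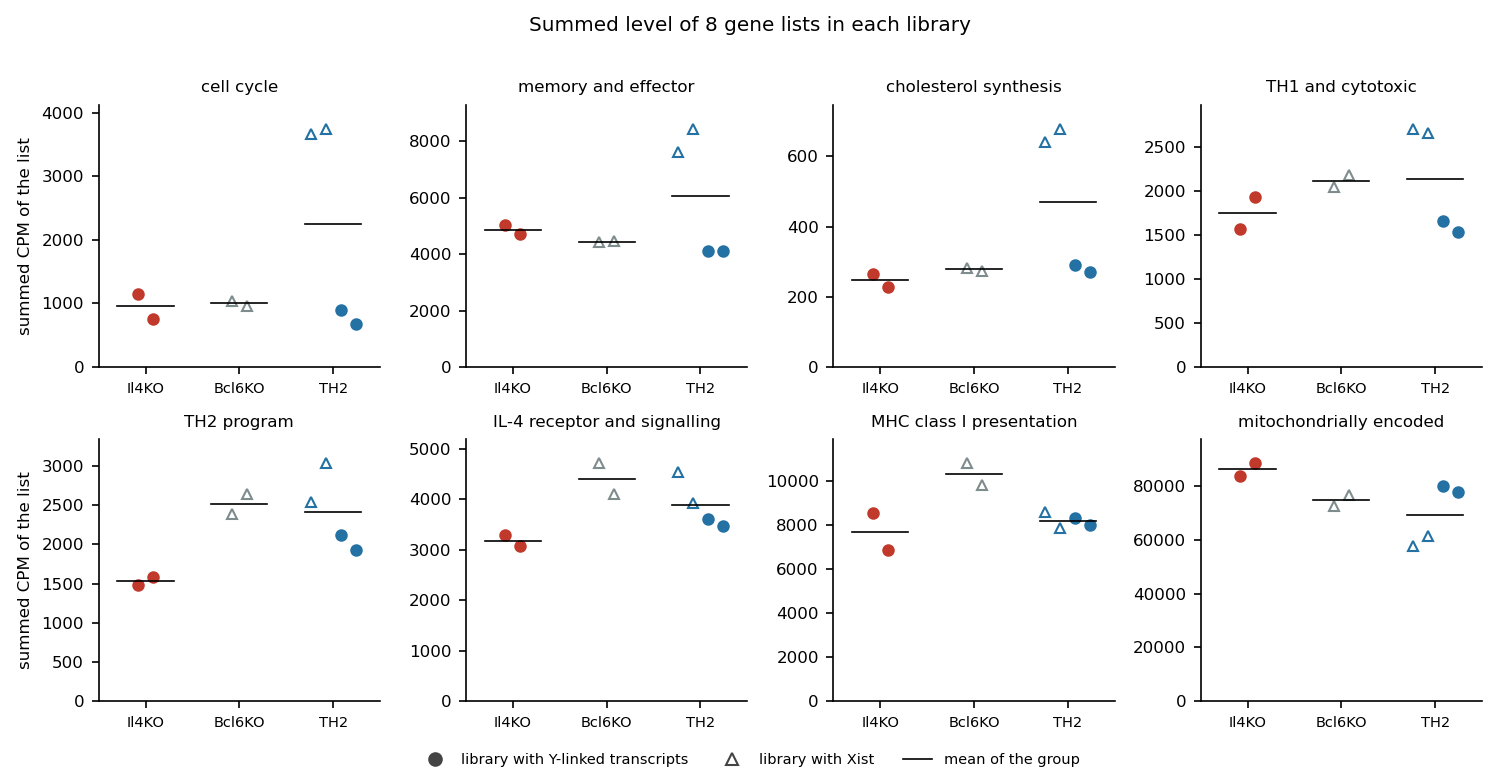
Summed level of 8 gene lists (vertical axes, CPM from 0) in each Il4KO, Bcl6KO and TH2 library; filled circles are libraries with Y-linked transcripts, open triangles libraries with Xist, and the line is the group mean. In the upper row the 2 TH2 libraries with Xist stand above all others, and in the TH2 program panel both Il4KO libraries (1479 and 1587) lie below the TH2 libraries (1935 to 3041).

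Against Bcl6KO cells, which also carry a deletion on the OTII background but were sorted as CD4+hCD2+, 8 of 14383 genes were called (0.0556%), 2 higher and 6 lower in Il4KO. This comparison and the one with TH2 share the Il4KO libraries, so their calls are not independent and are set side by side only. Klf4, Nlrc5, Itpr1, Hspa5 and Pttg1 were lower in both. Hspa5 stood at 132 and 162 CPM in Il4KO, against 463 and 421 CPM in Bcl6KO (log2 difference -1.48 ± 0.29, edgeR, adjusted p 0.00282). Pttg1 stood at 30.4 and 20.2 CPM in Il4KO, against 104 and 224 CPM in Bcl6KO (-2.57 ± 0.58, adjusted p 0.0341). Klf4 was at least 14.4-fold lower in Il4KO than in Bcl6KO, where it stood at 11.9 and 14.7 CPM.

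The other 3 calls were not made against TH2. Klf2 was higher in Il4KO, at 314 and 321 CPM, against 52.9 and 112 CPM in Bcl6KO (2.06 ± 0.46, edgeR, adjusted p 0.0341), with the TH2 libraries in between at 128 to 181 CPM. Timp2, an inhibitor of matrix proteases, had 23 and 7 counts in Il4KO and none in Bcl6KO (adjusted p 0.0341). Ipcef1 stood at 16.1 and 36.6 CPM in Il4KO, against 206 and 135 CPM in Bcl6KO (-2.60 ± 0.55, adjusted p 0.0178), and the TH2 libraries at 14.1 to 34.8 CPM were close to Il4KO. Bcl6KO against TH2 gave 3 calls (0.0209%), Ipcef1 and S100a4 among them, and the log2 differences there of Hspa5 (0.24), Itpr1 (-0.65) and Klf4 (0.25) did not pass. Of the genes described here, Nfkbia, Myb, Lif, Scd2 and Il21 were not called between Il4KO and Bcl6KO. Leaving out 1 library at a time gave 14 to 38 calls between Il4KO and Bcl6KO.

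The follicular helper libraries of the series held these transcripts at levels above Il4KO. Over the 14 TFH and TFH2 libraries Hspa5 ranged between 1043 and 2195 CPM, Nfkbia between 3848 and 8232 CPM, Klf4 between 50.2 and 264 CPM, Itpr1 between 35.5 and 146 CPM and Nlrc5 between 27.2 and 165 CPM. The Il4KO level of each of these 5 genes lay below all 14. This was not particular to Il4KO for Hspa5, Nfkbia and Klf4, where all TH2 and Bcl6KO libraries also lay below the 14. Their highest TH2 and Bcl6KO levels were 443.7 and 462.5 CPM for Hspa5, 1315 and 1180 CPM for Nfkbia, and 19.6 and 14.7 CPM for Klf4. For Itpr1 and Nlrc5 the TH2 and Bcl6KO libraries overlapped the 14. Il21 ranged between 19.7 and 182 CPM in the 14 libraries, also above the 9.47 CPM of Il4KO replicate 1. These libraries differ in gate and genotype from the Il4KO libraries, and the values are given as a scale only.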

How the data were processed

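RNA of sorted spleen T cells (10 ng of total RNA per library) was sequenced from the 3' end with the Lexogen QuantSeq kit, per the labels' protocols. The authors deposited raw whole-number counts per gene for each library. The submitters' processing notes name the counter featureCounts 1.6.0, the aligners STAR 2.7.0c and Bowtie 0.12.2, and the builds GRCm38.p6, mm10 and mm9. Which of them made these counts, and whether counting used strand, was not given in the sources. Overlapping genes, antisense genes and near-identical copies are therefore uncertain.

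Of 55573 gene identifiers, 93 had no name in GENCODE M21 (GRCm38) and held 0.0062% of counts. Counts of the 22 QuantSeq libraries in 9 groups were fitted together in edgeR 4.0.16 (R 4.3.3) with TMM scaling, filterByExpr (minimum count 10, minimum total 15) and the robust quasi-likelihood test. Benjamini-Hochberg adjusted p under 0.05 over all 14383 genes made a call. CPM use the library totals as deposited, without TMM factors (0.931 to 1.08). Library totals ran between 1834612 and 4442404 counts. Where a group had no counts, 3 counts per library stood in for it in fold bounds. Intervals and bounds cover counting error only. The script was tested on simulated data.

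Named genes were all calls, then genes of lowest p with a mean of at least 50 CPM until 10 per direction, all members of the IL-4 and type 2 cytokine lists, and from each other list the calls or the up to 3 members of highest level. Others were chosen after their values were seen. The libraries compared, the genes and the 27 gene lists were chosen with earlier results of these data known. Alternatives were other scaling, filters, fitted libraries, DESeq2 1.42.0, limma 3.58.1 (voom) and leaving out each library. Promoter sequences are from RefSeq. Libraries made by other methods were not used here, and a few genes within the counts given are not reported here.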

Additional observations from a re-analysis of the deposited data

Results flagged for a closer look

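In the TH2 group of 4 libraries, 20 of 105 genes tested had 1 library far from the other 3, by a gap, as a share of the group's range, above Dixon's 95% critical value. For normally distributed values chance flags about 1 in 20 groups. That rate does not hold for sparse genes, since 1 library with counts beside 3 without is always flagged. The number flagged is therefore not set against chance.

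TH2 replicate 4, the shallowest of the TH2 libraries, was the low one for Scd2 (0 CPM), Stat6 (0 CPM), Eomes (0 CPM), Jak1 (308 CPM), Jak3 (21.1 CPM) and Ets1 (256 CPM), and the high one for Vcam1 (1.08 CPM). TH2 replicate 3 was the high one for Il4 (13.3 CPM), Cd68 (6.96 CPM) and Hdc (0.332 CPM), and the low one for Irs2 (0 CPM), Lair1 (12.6 CPM) and Irf1 (518 CPM). TH2 replicate 2 was the high one for Il10 (36.1 CPM), Socs5 (9.45 CPM), Cd74 (9.78 CPM) and Ahr (0.337 CPM). TH2 replicate 1 was the high one for Hba-a1 (25.4 CPM) and Il17re (0.390 CPM). The values of Hdc, Ahr and Il17re are those of 1 count. The Il4KO group holds 2 libraries and cannot be tested in this way.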

How the results depend on the processing

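The 10 calls of Il4KO against TH2 became 38 with no filter on low counts, 0 among genes of at least 50 CPM, 86 with DESeq2 (12 higher and 74 lower), 104 with voom (72 higher and 32 lower, against 1 and 9 in edgeR), 32 against the TH2 libraries with Y-linked transcripts and 90 against those with Xist, a comparison chosen after seeing the data. Leaving out 1 library gave 15 to 50. The 8 calls against Bcl6KO became 20 with no filter, 5 among genes of at least 50 CPM, 17 with only the groups compared in the fit, 72 with DESeq2 and 194 with voom (126 higher and 68 lower), and leaving out 1 library gave 14 to 38. The cause was not tested.

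The Il4 difference of -2.66 turned to 3.73 without TH2 replicate 3 and to 3.75 against the TH2 libraries with Xist, and ranged between -6.41 and 3.73 with 1 library left out. These settings remove the 1 TH2 library with Il4 counts. Where an Il4KO or Bcl6KO library was left out, the lone library was assumed to vary like the other groups. Without Il4KO replicate 1 or 2 the median of all genes moved to -0.145 or -0.108. Of 144 repeats for the genes called against TH2, 104 kept the call and 40 lost it, and of 85 for those called against Bcl6KO, 59 kept it and 26 lost it; none changed direction. Of 400 list medians 60 moved.

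No paired analysis was possible because the labels carry no replicate numbers shared between the groups. With 2 Il4KO libraries, transcripts of a few counts are near the limit of what these depths can show.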

Other observations

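Lists not described above held no call. Genes of the nuclear respiratory chain, 24 tested, had a median log2 difference of 0.12 and summed to 4445 and 5676 CPM in Il4KO, against 5256 to 5982 CPM in TH2. Inhibitory receptor genes summed to 41.3 and 12.1 CPM in Il4KO, against 27.9 to 119 CPM in TH2, and TH17 genes to 38.2 and 54.5 CPM in Il4KO, against 4.87 to 102 CPM in TH2. Erythroid genes summed to 2.58 and 0.980 CPM in Il4KO, against 39.4, 24.3, 1.33 and 0 CPM in TH2, so that the same TH2 libraries were high as for the cell cycle genes. CD8 and NK cell genes summed to 40.8 and 1.63 CPM in Il4KO, against 44.8, 18.9, 21.6 and 0 CPM in TH2, and 9 of the 11 were at 0 in all 6 libraries. The part of these cells in the results was not tested.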
